A study of Homo sapiens with 12 samples.

Results

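The genes described here are 10 that mark or direct the B lymphocyte lineage: IGLL1, SPIB, BCL6, IRF4, IRF8, PRDM1, ID2, TCF3, CD79B and PAX5. They were taken by symbol from the probe table of the array, where they have 18 probes among 48803. Of the 10 genes, 7 were above background and entered the test across 10529 genes. IGLL1, BCL6 and ID2 were selected on earlier results of the same arrays, in the comparisons of cells with and without givinostat. Their values in every such comparison are given as a description, with no p-value.

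HDLM-2 is an established human cell line derived from Hodgkin lymphoma, and all groups are of that 1 line and differ, per the labels, in drug alone. Total RNA was measured on Illumina bead arrays after 24 hours in samples labelled as controls, with no drug named, with 100 nM givinostat, an inhibitor of histone deacetylases, with 5 µM sorafenib, which blocks RAF and several receptor tyrosine kinases, or with both drugs together (the combination). Each group had 3 arrays, A, B and C, so 12 in all. No label tells whether these were separate cultures, so the tests measure only the spread between arrays. In a bulk sample, fewer cells that express a gene and less of its RNA per cell cannot be told apart.

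B lymphocytes are built by a small set of transcription factors. TCF3 (also called E2A) and PAX5 open and hold the B cell programme, SPIB and IRF8 act in mature B cells, BCL6 keeps the germinal centre state, and IRF4 and PRDM1 (Blimp-1) drive the exit to plasma cells. ID2 encodes a protein that binds E proteins such as TCF3 and keeps them off DNA. CD79B encodes a signalling chain of the B cell receptor, and IGLL1 encodes λ5, part of the surrogate light chain that stands in for the light chain in B cell precursors. Reed-Sternberg cells of Hodgkin lymphoma mostly derive from B cells that have lost much of this programme, although HDLM-2 is usually classed as a line of T cell origin.

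A pair of gene starts is printed because each holds the letters that a protein of this group, or a known partner, reads. IGLL1 is a known target of E proteins, which read the E-box CANNTG, and BCL6 has in the literature a cluster of sites of the form TTCNNNGAA near its start, read by STAT factors and by BCL6 itself. Both motifs read the same on both strands, so each place was counted once, and overlaps between places were allowed. The sequences are RefSeq's for GRCh38.p14, on the minus strand, from 250 bases before the annotated start to 50 bases after it, with the matches in capitals. IGLL1 is at chr22:23580241-23580540 and BCL6 at chr3:187745419-187745718.
IGLL1: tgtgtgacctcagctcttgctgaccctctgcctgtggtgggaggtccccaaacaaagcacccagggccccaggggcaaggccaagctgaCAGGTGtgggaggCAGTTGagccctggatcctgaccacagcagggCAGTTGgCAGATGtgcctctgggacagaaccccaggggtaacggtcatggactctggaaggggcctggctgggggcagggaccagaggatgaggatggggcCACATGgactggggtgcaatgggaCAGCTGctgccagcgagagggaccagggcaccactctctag
BCL6: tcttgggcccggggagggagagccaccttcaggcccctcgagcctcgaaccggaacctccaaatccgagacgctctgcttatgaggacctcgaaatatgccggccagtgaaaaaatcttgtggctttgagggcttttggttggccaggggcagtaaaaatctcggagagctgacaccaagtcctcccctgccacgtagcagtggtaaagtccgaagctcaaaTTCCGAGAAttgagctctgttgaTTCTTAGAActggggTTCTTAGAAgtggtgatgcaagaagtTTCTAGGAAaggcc

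The IGLL1 window holds 6 E-boxes, the first starting at position -161 relative to the gene's start and the last just after that start. Of 35116 windows of the same length at the starts of annotated genes, 68.7% hold at least 1 E-box and 0.615% hold at least 6. The BCL6 window holds 4 matches of TTCNNNGAA, all close to the start. At least 1 such match lies in 7.66% of the 35116 windows and at least 4 in 0.0199%, which is 7 windows. A further BCL6 start, at chr3:187736452-187736751, holds 4 E-boxes and no match of TTCNNNGAA. Windows were found for 9 of the 10 genes, 12 in all, and none outside BCL6 held TTCNNNGAA. Of the other members, IRF8 has windows with 4 and 1 E-boxes and PRDM1 with 2 and 3, and at least 4 lie in 5.58% of all windows. The windows of SPIB, ID2 and PAX5 hold 1 E-box each, and those of IRF4 and TCF3 hold none of either motif. A match says that the letters are there, not that a protein binds them.

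Mean intensity over all probes was between 1033.8 (sorafenib array C) and 1629.7 units (control array B), and 16382 to 17934 probes per array were above background. Sorafenib array C lay farthest from its group mean (root mean square 0.221 on the log2 scale, the other arrays 0.147 to 0.175), and results that turn on it are given without it. Defining B cell markers were mostly missing: of 11 with a probe, MS4A1 (CD20) and EBF1 were tested and CD22, BLK and VPREB3 joined CD79B and PAX5 on no array. Their summed linear level was 346 to 509 units in control, 444 to 587 with givinostat, 458 to 632 with sorafenib and 494 to 622 with both. Among 18 T cell markers, CD2, CD247, LAT and GATA3 were tested, while CD3D, CD3E, CD3G and CD4 were among 10 on no array. With givinostat CD2 (0.40 ± 0.09 SE) and GATA3 (0.52 ± 0.12) rose and CD247 fell by 0.40 ± 0.09. The summed level of the tested T cell markers was 33730 to 36146 units in control and 33005 to 34837 with givinostat. It was 35034 to 36572 with sorafenib and 28416 to 30978 with both, the last below every control array. Of 12 Hodgkin Reed-Sternberg cell markers 11 were tested, IRF4 among them. With givinostat 1 rose, GATA3, and 5 fell, beside 17.6% of all genes called higher and 15.7% called lower. LTA fell by 1.56 ± 0.11, TNFRSF8 (CD30) by 1.15 ± 0.22 and TRAF1 by 0.64 ± 0.10. The summed level of the tested Hodgkin markers was 91932 to 94617 units in control and 82108 to 85607 with givinostat. It was 108156 to 109205 with sorafenib and 93195 to 97417 with both. The part of these markers in the results below was not tested.

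Detection divided the 10 genes. A probe counted as above background at a detection p under 0.05, and 11 of the 18 probes met this on all 3 arrays of at least 1 group. SPIB, BCL6, IRF4 and TCF3, each with 1 probe, the 4 PRDM1 probes and the 2 ID2 probes were above background on 12 of 12 arrays. CD79B, with 3 probes, and PAX5, with 1, were above background on 0 of 12: the lowest detection p was 0.079 for CD79B and 0.552 for PAX5. Neither gene was above background in any group. IRF8 lay at the edge, with its 1 probe above background on control B, sorafenib A and combination B and a detection p from 0.04 to 0.271, and it did not enter the test.

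**Figure D1:**
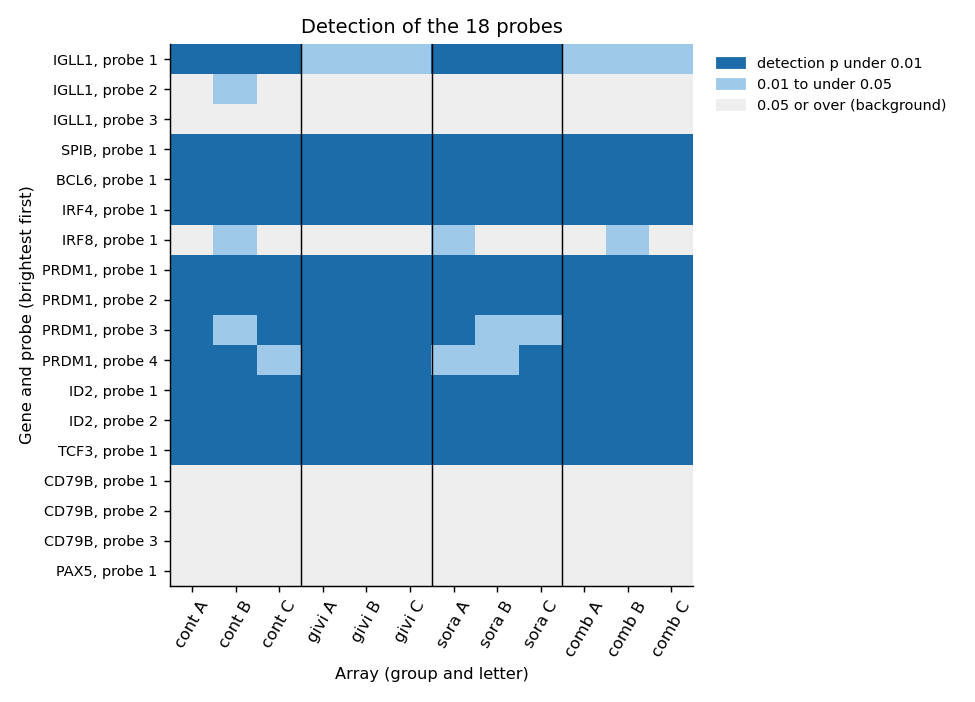
Detection of the 18 probes (rows, by gene) on the 12 arrays (columns, by group and letter). Dark blue is a detection p under 0.01, light blue 0.01 to under 0.05 and grey 0.05 or over; the CD79B and PAX5 rows are grey throughout, and the first IGLL1 row turns from dark to light blue on the 6 arrays with givinostat.

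With every probe fitted, whether above background or not, limma called IRF8, CD79B and PAX5 in none of the 5 group comparisons, and CD79B had an unadjusted p under 0.05 in 2. The values of largest size were those of CD79B, 0.43 ± 0.15 SE with sorafenib (limma, adjusted p = 0.197) and 0.42 ± 0.15 with both drugs (adjusted p = 0.0763). The signals behind them lie within the background.

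IGLL1 was the member with the lowest ratio to control. Its brightest probe read 9.79, 10.19 and 9.84 on control arrays A, B and C, 6.88, 7.02 and 6.90 with givinostat, 9.05, 9.20 and 9.36 with sorafenib, and 6.43, 7.04 and 7.09 with both, in log2 intensity. The 6 arrays with givinostat all lie below the 6 without it, and the sorafenib arrays lie between the control arrays and those with givinostat. The difference from control was -3.01 ± 0.17 SE with givinostat and -3.09 ± 0.17 with both drugs, an 8.03-fold and an 8.49-fold lower level. Against sorafenib the combination was lower by 5.11-fold (log2 difference -2.35 ± 0.17).

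The size of the IGLL1 difference depends on the treatment of background. With givinostat the probe was close to background, at a detection p of 0.011 to 0.014, and with both drugs at 0.011 to 0.029. Without background correction the differences were -1.91 ± 0.10 with givinostat, -1.94 ± 0.10 with both drugs and -1.35 for the combination against sorafenib. The non-normalized intensity averaged 1326 ± 276 units in control, 311 ± 18 with givinostat, 679 ± 42 with sorafenib and 329 ± 37 with both (SD, n = 3).

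IGLL1 also fell with sorafenib alone, by 0.73 ± 0.17 SE on the log2 scale (limma, adjusted p = 0.0332), a 1.66-fold lower level with no overlap between the arrays. This call was lost when any control or sorafenib array was left out, the adjusted p then running from 0.051 to 0.0969. Beside it stands the share of all genes called in that comparison, 4.58%. The same control arrays entered the comparisons on which IGLL1 was selected. Adding sorafenib to givinostat gave a difference of -0.08 (95% interval -0.45 to 0.29, adjusted p = 0.856), and the interval spans 0. Both of these groups were close to background at this probe, so a further fall could hardly have been seen.

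The 3 IGLL1 probes disagreed. A further probe of the same transcript record was above background on control B alone, at a detection p of 0.049, and averaged 5.88 in control and 5.96 with givinostat in log2 intensity. The last probe, for another transcript record, was above background on no array. IGLL1 is closely alike in sequence to the immunoglobulin lambda constant genes, and whether the bright probe also reads their RNA was not tested, since no probe sequence was at hand.

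SPIB, an ETS factor of B cells and plasmacytoid dendritic cells, read 10.25, 10.30 and 9.95 in control, 9.06, 8.93 and 9.09 with givinostat, 10.17, 10.01 and 10.83 with sorafenib and 9.20, 9.22 and 8.99 with both. All arrays with givinostat lie below all arrays without it. SPIB fell by 1.14 ± 0.18 SE with givinostat (limma, adjusted p = 0.000554) and by 1.03 ± 0.18 with both drugs (adjusted p = 0.000776), a 2.20-fold and a 2.05-fold lower level. With sorafenib it changed by 0.17 ± 0.18 (adjusted p = 0.648), a value that became -0.08 without sorafenib array C, the highest of the 12.

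BCL6 encodes the repressor that holds germinal centre B cells in their state. It read 11.15, 11.23 and 11.35 in control and 10.02, 10.20 and 10.17 with givinostat. With sorafenib it read 11.40, 11.50 and 11.29, and with both drugs 10.36, 10.34 and 10.29, so the arrays with and without givinostat do not overlap. The difference from control was -1.11 ± 0.09 SE with givinostat and -0.92 ± 0.09 with both drugs. For the combination against givinostat the difference was 0.20 (95% interval -0.003 to 0.40, limma, adjusted p = 0.3), with all combination arrays above all givinostat arrays.

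IRF4, an interferon regulatory factor of plasma cells and of Hodgkin cells, read 11.85, 11.90 and 11.75 in control and 11.24, 11.31 and 11.33 with givinostat. It read 11.60, 11.77 and 12.26 with sorafenib and 11.44, 11.80 and 11.69 with both, where the arrays overlap those of control. IRF4 fell with givinostat by 0.54 ± 0.15 SE (limma, adjusted p = 0.0158), which missed the threshold without control array B (adjusted p = 0.051). With both drugs the difference from control was -0.19 ± 0.15 (adjusted p = 0.335), and that from givinostat was 0.35 (95% interval 0.02 to 0.68, adjusted p = 0.264). Whether sorafenib changes the response of IRF4 to givinostat did not pass its test (interaction 0.31 ± 0.21, adjusted p = 0.618).

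PRDM1, the repressor that ends the B cell programme in plasma cells and that BCL6 represses, moved the other way. Its brightest probe read 12.59, 12.79 and 12.48 in control, 13.69, 13.66 and 13.54 with givinostat, 12.28, 12.24 and 12.18 with sorafenib and 13.42, 13.49 and 13.59 with both. The arrays with givinostat are the highest and the sorafenib arrays the lowest, with no overlap among control, sorafenib and the 6 arrays with givinostat. PRDM1 rose by 1.01 ± 0.10 SE with givinostat (limma, adjusted p = 1.37e-05), by 0.88 ± 0.10 with both drugs (adjusted p = 2.92e-05) and by 1.27 ± 0.10 in the combination against sorafenib (adjusted p = 2.95e-06).

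All 4 PRDM1 probes gave the rise with givinostat, from 1.01 to 1.15 on the log2 scale, each called when probes were fitted singly. With both drugs they ranged from 0.59 to 0.93 and 3 of 4 were called. The fall with sorafenib, 0.39 ± 0.10 at the brightest probe (adjusted p = 0.0449), is less firm. The 4 probes ranged from -0.66 to -0.14, none was called when fitted singly, and the call was lost in 16 of 20 alternative settings, with an adjusted p of up to 0.145. These include leaving out any 1 of the 12 arrays.

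**Figure D2:**
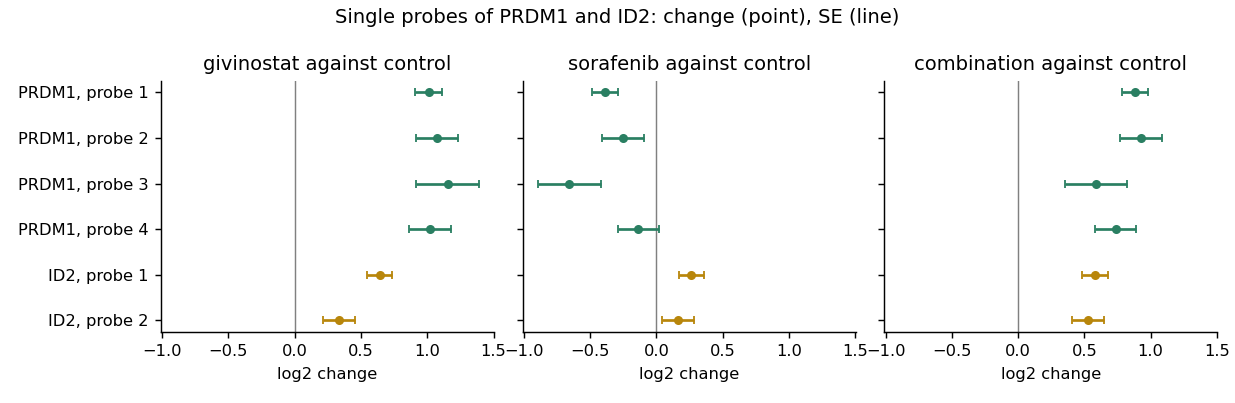
Log2 change against control (horizontal axis) of the 4 PRDM1 probes (green) and the 2 ID2 probes (ochre) in 3 comparisons, numbered from the brightest down. Points are limma estimates with SE; the PRDM1 points lie from 1.01 to 1.15 with givinostat and from -0.66 to -0.14 with sorafenib.

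TCF3, the E protein that starts B cell development, read 12.50, 12.66 and 12.30 in control and 12.14, 12.20 and 12.19 with givinostat. It read 12.57, 12.56 and 12.73 with sorafenib and 12.15, 12.18 and 12.004 with both, so that the 6 arrays with givinostat lie below the other 6. TCF3 fell by 0.31 ± 0.10 SE with givinostat (limma, adjusted p = 0.038), and that call was lost in 7 settings, among them without control array A or B or any givinostat array (adjusted p up to 0.142). With both drugs it fell by 0.38 ± 0.10 (adjusted p = 0.0123), a call lost without control array B (adjusted p = 0.053) or combination array C (adjusted p = 0.0522). Against sorafenib the combination was lower by 0.51 ± 0.10 (adjusted p = 0.00263), a call kept in every setting tried.

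ID2, the inhibitor of TCF3 and its relatives, read 14.14, 14.27 and 14.30 in control and 14.91, 14.95 and 14.77 with givinostat. It read 14.51, 14.56 and 14.42 with sorafenib and 14.77, 14.75 and 14.93 with both. Control is the lowest group and sorafenib lies between control and the arrays with givinostat, with no overlap at this probe. The difference from control was 0.64 ± 0.09 SE with givinostat, 0.58 ± 0.09 with both drugs and 0.26 ± 0.09 with sorafenib, the last not past the threshold (limma, adjusted p = 0.122). The other ID2 probe gave 0.33 with givinostat, 0.16 with sorafenib and 0.53 with both drugs. There the groups overlap: sorafenib read 14.44, 14.37 and 14.67, against 14.20, 14.37 and 14.43 in control and 14.79, 14.56 and 14.64 with givinostat.

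**Figure D3:**
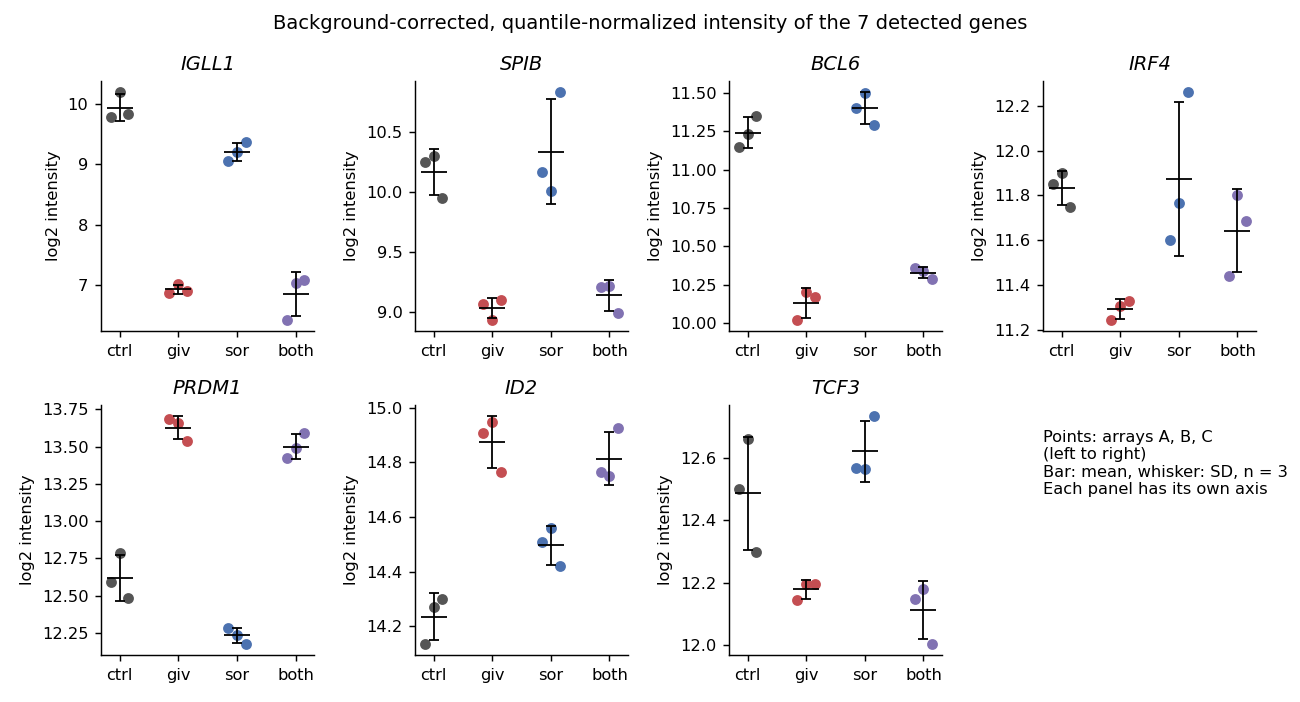
Log2 intensity (vertical axis, each panel with its own scale) of the 7 detected genes on every array. Points are arrays A, B and C from left to right in control (ctrl), givinostat (giv), sorafenib (sor) and combination (both), bars are means and whiskers SD (n = 3). IGLL1, SPIB, BCL6 and TCF3 are lower, and PRDM1 and ID2 higher, on all 6 arrays with givinostat than on the other 6. How many of all genes separate in this way was not counted. IGLL1, BCL6 and ID2 were selected on such comparisons, so nothing is read from the number of genes that separate.

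Counted over the group, givinostat against control called 7 of the 7 tested genes, 2 higher and 5 lower, where 33.3% of all genes were called (1856 higher, 1653 lower). The combination against control called 6 of 7, 2 higher and 4 lower, beside 41.4% of all genes (2201 higher, 2155 lower). The combination against sorafenib called the same number in each direction, beside 35.3% of all genes. IGLL1, BCL6 and ID2 were selected on comparisons of these 3 kinds, so nothing is read from the 3 counts. Sorafenib against control called 2 of 7, both lower, beside 4.58% of all genes (315 higher, 167 lower). The 2 are IGLL1 and PRDM1, whose calls were lost in 8 and 16 of 20 alternative settings. IGLL1 was selected on comparisons that share the control arrays, so nothing is read from this count either. The median change of the 7 genes was -0.54 with givinostat, 0.13 with sorafenib and -0.38 with both, and that of all genes -0.02, -0.004 and -0.02. The same selection enters the medians with givinostat and with both drugs, so nothing is read from those. The 3 comparisons with control share their control arrays.

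Sorafenib added to givinostat called 0 of the 7, where limma called 1.34% of all genes. IRF4 alone had an unadjusted p under 0.05 there, at 0.0391. The interaction, which asks whether the change with both drugs differs from the sum of the separate changes, called 0 of 7 and 0.019% of all genes. IGLL1 had the highest interaction of the 7, 0.65 ± 0.24 SE, and ID2 the lowest, -0.32 ± 0.13. Both genes were selected on comparisons with givinostat that enter the interaction. IGLL1 was also close to background on the arrays with givinostat, so nothing is read from these values.

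**Figure D4:**
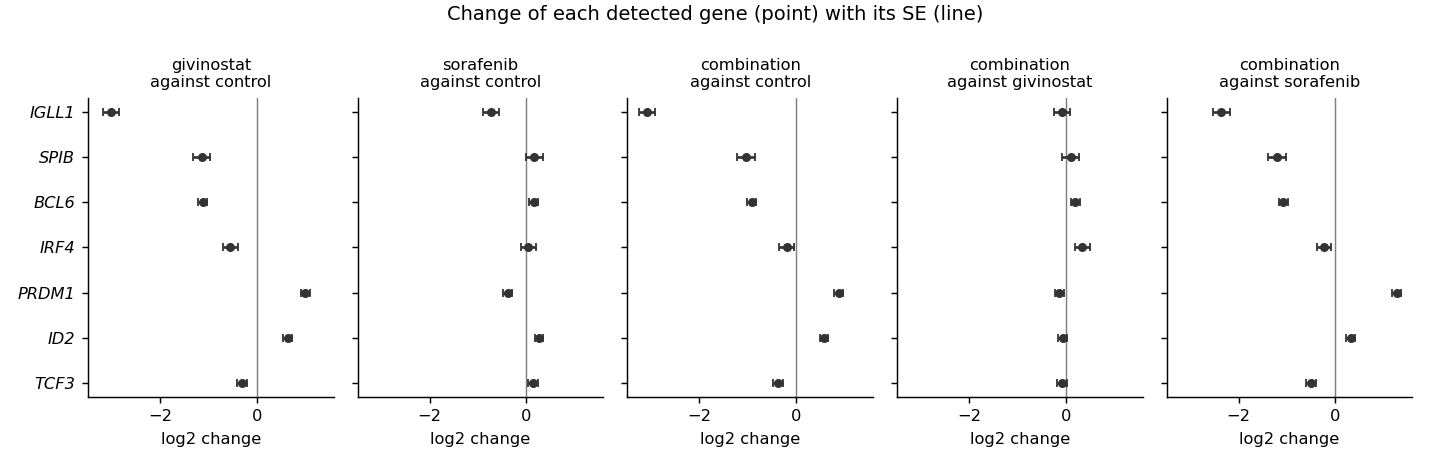
Log2 change (horizontal axis) of the 7 detected genes in 5 comparisons. Points are limma estimates and lines SE; the points spread from -3.09 for IGLL1 to 1.27 for PRDM1 in the 3 comparisons that set arrays with givinostat against arrays without it, and from -0.13 to 0.35 for the combination against givinostat.

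Scaling arrays by their medians, in place of quantile normalization, put the median change of all genes at -0.12 with givinostat and -0.17 with sorafenib, where it was -0.02 and -0.004, and the split of calls at 1106 higher and 1996 lower with givinostat, 79 and 366 with sorafenib, and 1503 and 2287 with both. In the combination it was 72 higher and 16 lower against givinostat, where the main split was 89 and 52, and 1951 and 911 against sorafenib, where it was 1873 and 1847. Relative to that shift IGLL1 stood at -2.98 with givinostat, PRDM1 at 0.97 and ID2 at 0.64. With sorafenib the small positive values of SPIB, BCL6, IRF4 and TCF3 turned negative under this scaling, from -0.17 to -0.02, and stayed positive relative to the shift.

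Other genes of the same pathways were counted from 9 lists. Their counts with givinostat stand beside 17.6% of all genes called higher and 15.7% called lower, those with sorafenib beside 2.99% and 1.59%, and those with both drugs beside 20.9% and 20.5%. Of 12 surrogate light chain and B cell precursor genes with a probe, 5 were tested, and VPREB1, the partner of λ5, was on no array, nor were RAG1, RAG2 and DNTT, which rearrange the antigen receptor genes. With givinostat 2 rose and 0 fell: SOX4, a factor of precursor cells, by 0.46 ± 0.12 SE (limma, adjusted p = 0.0117), and IL7R, the interleukin-7 receptor, by 0.93 ± 0.29. IL7R was above background on 1 of 3 control and 3 of 3 givinostat arrays. It entered the test only through arrays with givinostat, where it is high, so no p-value is given for it and its call carries that limit.

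Among 10 tested B cell transcription factors 3 rose and 2 fell with givinostat, and the median change was 0.16. MEF2C, which acts in B cell proliferation, rose by 1.17 ± 0.14 SE (limma, adjusted p = 6.12e-05), RUNX1 by 0.46 ± 0.10 and FOXO1 by 0.32 ± 0.08, while RFX5, a factor of the MHC class II genes, fell by 0.51 ± 0.10. With sorafenib limma called 0 of 10, and 2 had an unadjusted p under 0.05. With both drugs 3 rose and 2 fell. EBF1, which specifies the lineage with TCF3, was among those that rose with both, by 0.65 ± 0.20 (adjusted p = 0.019). POU2F2, BACH2, BCL11A and HHEX were on no array.

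Of 29 B cell receptor and surface genes with a probe 13 were tested, and 11 were on no array, among them CD22, BLK, BTK, BLNK and SYK. With givinostat 3 rose and 2 fell. PLCG2, the phospholipase of receptor signalling, was higher by 1.42 ± 0.20 SE, SWAP70 rose by 0.62 ± 0.10, and CD83, an activation marker, fell by 0.86 ± 0.10. PLCG2 was above background on 2 of 3 control and 3 of 3 givinostat arrays. CD72 was at least 1.24-fold higher, being above background on 0 of 3 control arrays. PLCG2 and CD72 entered the test only through arrays with givinostat, where they are high, so no p-value is given for them and their calls carry that limit. With sorafenib 1 of 13 was called, PTPN6, a phosphatase that damps receptor signals, which rose by 0.61 ± 0.13 (limma, adjusted p = 0.0242).

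Other plasma cell genes went both ways. Of 7 tested, 3 rose and 2 fell with givinostat, with a median change of 0.12. CAV1, a caveolar protein gene, rose by 1.58 ± 0.10 SE (limma, adjusted p = 5.38e-07) and MZB1, a chaperone of antibody secretion, by 0.41 ± 0.09. XBP1, the factor of the secretory apparatus, fell by 0.35 ± 0.11 and ELL2, an elongation factor of antibody messenger RNA, by 0.67 ± 0.12. JCHAIN and TNFRSF17 (BCMA) were on no array. With sorafenib CAV1 rose by 1.03 ± 0.10 and PIM2 fell by 0.46 ± 0.10.

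Among 6 tested E proteins and inhibitors, 2 relatives of ID2 rose with givinostat: ID1 by 0.96 ± 0.13 SE (limma, adjusted p = 0.000146) and ID3 by 0.65 ± 0.10 (adjusted p = 0.000441). ID4, a further relative, and TAL1 were on no array. ID1 read 9.39, 9.36 and 9.67 in control and 10.47, 10.31 and 10.52 with givinostat, without overlap. MSC, which encodes ABF-1, an inhibitor of E2A known in Hodgkin cells, fell by 0.72 ± 0.16 (adjusted p = 0.00395). The other 3 were not called. With sorafenib ID1 fell by 0.58 ± 0.13 (adjusted p = 0.029), and it was lower in the combination than with givinostat, by 0.74 ± 0.13 (adjusted p = 0.0167). Against control, ID1 was not called with both drugs (0.22 ± 0.13, adjusted p = 0.193), and ID3 rose by 0.31 ± 0.10 (adjusted p = 0.0257).

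Of 8 tested interferon regulatory factor genes and partners, 0 rose and 2 fell with givinostat, IRF1 by 1.03 ± 0.18 SE (limma, adjusted p = 0.000857) and IRF2BP2 by 0.43 ± 0.10. IRF5 fell with both drugs, by 0.74 ± 0.12 against control and by 0.83 ± 0.12 against givinostat (adjusted p = 0.00645). The median of the 8 was -0.11 with givinostat.

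Of 11 tested genes that BCL6 is known to repress, 2 rose and 3 fell with givinostat. Their median change was -0.08, beside -0.02 for all genes. A relation of these values to the BCL6 level was not tested. CDKN1A, a cell cycle inhibitor gene, rose by 1.91 ± 0.13 SE (limma, adjusted p = 9.71e-07), and BCL2L1, an inhibitor of cell death, fell by 0.65 ± 0.09, CHEK1 by 0.43 ± 0.08 and CD80 by 0.44 ± 0.13. Of 10 tested genes of BCL6 and PRDM1 corepressors 3 rose, MTA3 by 0.36 ± 0.10, HDAC3 by 0.32 ± 0.09 and BCOR by 0.24 ± 0.08, and CTBP1 fell by 0.33 ± 0.12. With sorafenib CD44 rose by 0.66 ± 0.09 and CCL3 fell by 0.57 ± 0.14.

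Of 7 tested factors of other lineages that Hodgkin cells are known to use, 2 rose and 3 fell with givinostat. STAT5A, which represses B cell genes in such cells, fell by 1.07 ± 0.10 SE (limma, adjusted p = 1.34e-05) and STAT5B by 0.69 ± 0.11, and CSF1R, a myeloid receptor, fell by 0.98 ± 0.18. JUN rose by 0.76 ± 0.13 with givinostat, by 0.64 ± 0.13 with sorafenib (adjusted p = 0.0229) and by 1.39 ± 0.13 with both drugs. Markers of other cell types moved with givinostat too: of 4 tested cytotoxic cell genes GZMB rose by 1.23 ± 0.15 and 3 were not called (NKG7 -0.68 ± 0.25, adjusted p = 0.0557; PRF1 0.11 ± 0.12; NCAM1 0.06 ± 0.16), and COL1A1 was at least 2.09-fold higher, with 0 of 3 control arrays above background. With both drugs NKG7 was at least 1.18-fold lower (adjusted p = 0.0262), with 0 of 3 combination arrays above background. Of 8 cytotoxic cell markers with a probe GZMA, KLRD1 and KLRB1 were on no array, and the summed level was 12030 to 12817 units in control and 12285 to 14175 with givinostat. Of 8 fibroblast and endothelial markers 2 were tested and COL1A2, COL3A1 and VWF were among 6 on no array, and the sum was 226 to 253 units in control and 311 to 434 with givinostat. The part of such markers in the results above was not tested.

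**Figure D5:**
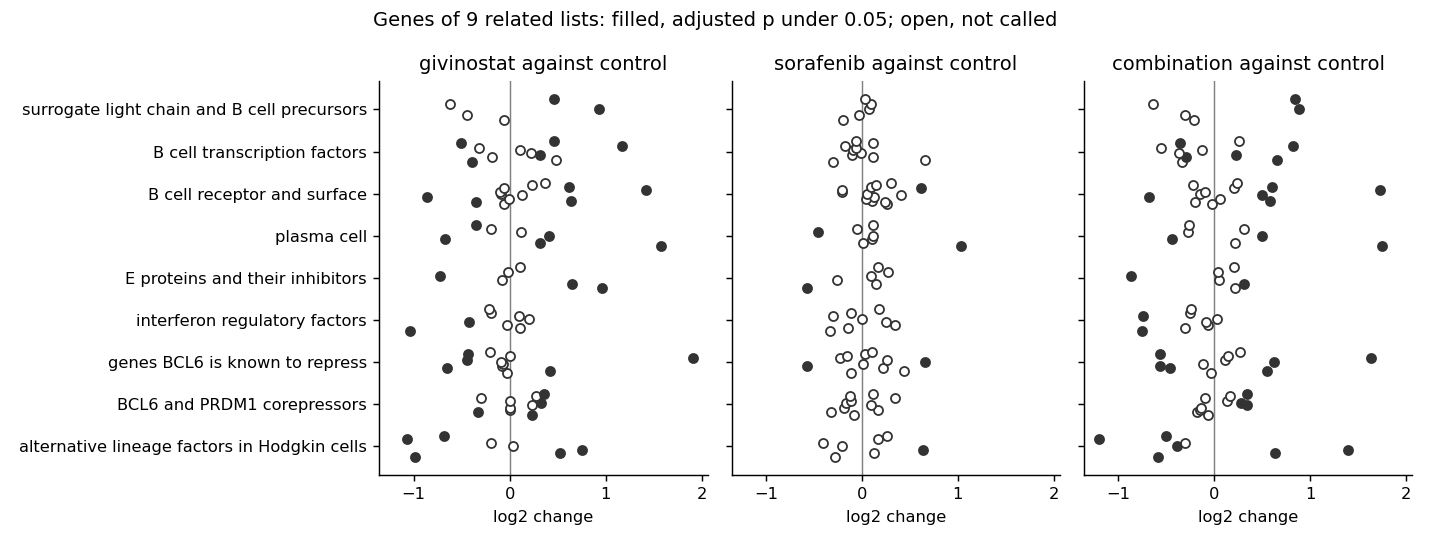
Log2 change against control (horizontal axis) of the tested genes of 9 related lists (rows), each point a gene, filled where limma's adjusted p was under 0.05. With givinostat and with the combination most lists hold filled points on either side of 0, and with sorafenib few points are filled.

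IGLL1 was set beside every other gene over the 12 arrays by Pearson's r, as a description. The genes most like it were EPHA4 (r = 0.985), MOK (0.983), KRTAP17-1 (0.983), GAS1 (0.979) and MAK16 (0.979), and the most opposite EEIG1 (-0.988), TM7SF2 (-0.987), GCA (-0.987), REEP5 (-0.986) and BCAR3 (-0.986). The arrays form clusters with and without givinostat, which these values share, and 261 genes, 2.48% of those tested, had an r beyond 0.95 in size. None of the 10 named was among the 10 named by Spearman's rho. Within the group, r with IGLL1 ran from 0.70 for IRF4 to 0.93 for BCL6, and was -0.88 for PRDM1 and -0.92 for ID2.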

How the data were processed

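HDLM-2 RNA was measured on 12 arrays. Per the submitters' processing notes BeadStudio read them, with no version given. The deposited non-normalized table holds a bead-averaged intensity per probe, without background subtraction, and a fraction headed as a detection p-value. The deposited fraction rises with intensity (Spearman correlation at least 0.992), so detection p was taken as 1 minus it. The authors' processed table holds quantile-normalized linear intensity and served as an alternative.

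Intensities were background-corrected (normexp from detection p, offset 16), quantile normalized and log2 transformed with limma 3.58.1 in R 4.3.3, with data.table (1.17.8) and statmod (1.5.0). A probe entered at a detection p under 0.05 on every array of some group (16927 probes; 14039 with 1 symbol). Symbols came from GEO's platform annotation, updated by Entrez ID: 28098 probes had 1 symbol, 13 several and 20692 none. The brightest probe stood for a gene, giving 10529 genes. Group means were fitted over 12 arrays (8 residual, 4.04 prior degrees of freedom), and two-sided p-values were Benjamini-Hochberg adjusted over all genes; called means an adjusted p under 0.05. Where no array of a group was above background for a gene, the fold is against the background limit. The script was tested on simulated data. With 3 arrays per group, their number limits the precision.

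Members and lists were chosen with earlier results of these data known, and the p-values printed for them are to be read with that limit. All 10 members were named, up to 4 genes with the smallest p per list and comparison, and the 5 genes most and least like IGLL1. Alternatives changed normalization, background, filter, probe choice, source, arrays fitted, replicate block and arrays left out.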

Additional observations from a re-analysis of the deposited data

How the results depend on the processing

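The 42 results of single genes (7 genes, 6 comparisons) were recomputed in 833 settings: 779 kept direction and side of the threshold, 36 changed the call and 18 turned the sign, in each of which neither value was called. Of 21 calls, 15 held in every setting, but they include those of IGLL1, BCL6 and ID2 on which these genes were selected. All 3 calls of SPIB held, as did the 3 of PRDM1 in comparisons with givinostat. ID2 in the combination against sorafenib passed no longer without sorafenib array C or combination array C. Sorafenib against control called 2 of the 7 genes, but 0 without a detection filter, 1 with the mean of a gene's probes, 0 with only the compared groups, 1 with the replicate block, and 0 to 1 with an array left out. Over all genes it called 214 without the filter, 75 with the compared groups only and 164 to 417 with an array left out, against 482. Combination against givinostat called 88 under median scaling, 306 without background correction, 306 on the authors' values, 68 without the filter, 83 with compared groups only and 32 to 231 with an array left out, against 141. The interaction called 1 under median scaling, without the filter, with probes detected on all 12 arrays and with probe means, 8 without background correction and on the authors' values, 0 with the replicate block, and 0 to 2 with an array left out, against 2. For IGLL1 likeness, Spearman's measure named 0 of the same 10.

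Signs that turned under median scaling were, for sorafenib against control, SPIB (-0.0167), BCL6 (-0.0468), IRF4 (-0.1651) and TCF3 (-0.0675), IGLL1 in the combination against givinostat (0.0129), and the interactions of SPIB (0.1861) and TCF3 (0.0025). Probe means turned ID2 in the combination against givinostat (0.069). With an array left out, SPIB ran from -0.0822 to 0.3307 and IRF4 from -0.1508 to 0.1803 with sorafenib, each lowest without sorafenib array C. IGLL1 ran from -0.2 to 0.1309 for the combination against givinostat. The interactions ran from -0.2253 to 0.1876 for SPIB and from -0.014 to 0.092 for BCL6. Without sorafenib array C they were 0.1876 for SPIB and -0.0127 for BCL6. The cause was not tested.

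With the letter as a replicate block, givinostat against control called 7 of the 7 genes and 3559 genes in all, and the PRDM1 fall with sorafenib lost its call (adjusted p = 0.0563). Over 18 same-letter pairs the deviations from group means correlated from -0.06 to 0.25, 5 pairs over 0.1. Pairs with different letters correlated from -0.24 to 0.12, and 6 of 12 arrays were closest to their own letter. What arrays of a letter share was not tested. Limits are the 3 arrays per group, the single line and time, and the dimness of IGLL1 with givinostat, whose level there is set partly by the background correction. At a detection p under 0.01 its probe was detected on 6 of 12 arrays.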
